A study of Homo sapiens with 24 samples.

Results

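KRT13, KRT4, CRNN and SPRR3 are genes that the upper, suprabasal layers of the human esophageal lining express. These 4 of the 28278 genes in the count table were selected on their measured response to p63 in these libraries, so their changes are given as descriptions, without a test. Their rows were found by gene symbol, and all 4 were among the 15642 genes that passed the filter on low counts.

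RNA was sequenced from TYUC-1, a cell line from a neuroendocrine esophageal carcinoma grown in suspension with serum. Of its 2 engineered lines, i-DNp63 and i-TAp63, one makes ΔNp63 and the other TAp63 under doxycycline at 1 µg/ml. Cells had doxycycline for the last 1, 3 or 6 days of a 6 day course and the vehicle DMSO before it, and the day 0 groups had DMSO throughout. Each line and day had 3 libraries, which gives 8 groups and 24 libraries. The design text calls the replicates biological without saying what separated the cultures, so a p-value here measures only the spread among these libraries, which may be technical. A treatment label also names EPZ-6438, which inhibits EZH2, a histone methyltransferase, for the same number of days as doxycycline. Whether the cells received it is not clear from the labels, so days of induction and days of inhibitor cannot be told apart. No line without a p63 construct but with doxycycline was analysed here, each construct stands for 1 line, and whether a line is 1 clone is not given in the sources used here.

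In the esophagus, basal cells divide and carry the keratins KRT5 and KRT14, and their daughters move up and exchange these for the keratin pair KRT4 and KRT13. A type I and a type II keratin assemble as partners into filaments: KRT13 is the type I member of this mucosal pair and KRT4 the type II member. CRNN encodes cornulin, a fused-type S100 protein of the upper mucosal layers, and SPRR3 a small proline-rich protein that is cross-linked into the cornified envelope of such cells. The transcription factor p63, made from TP63 as TAp63 or as the N-terminally shorter ΔNp63, is needed for stratified epithelia, and ΔNp63 is the main form in their basal layer.

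The genes lie on 3 chromosomes of hg38: KRT13 at chr17:41500981-41505612 on the minus strand, KRT4 at chr12:52806549-52814116 on the minus strand, CRNN at chr1:152409243-152414263 on the minus strand and SPRR3 at chr1:153001747-153003856 on the plus strand. KRT13 belongs to the type I keratin cluster and KRT4 to the type II cluster. CRNN and SPRR3 share the epidermal differentiation complex, with their lowest coordinates 592.5 kb apart. No member overlaps another gene of the table. Fragments were counted over whole transcript spans, introns included, so levels of different genes are compared here per kb of span.

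The promoters are shown because KRT4 and SPRR3 had their larger responses in different p63 lines, and CRNN shares a gene complex with SPRR3. RefSeq tables (GRCh38.p14) held 3 of the 4, each printed as the 250 bases before the start site, 5′ to 3′ on the strand of the gene: KRT4 at chr12:52814117-52814366, CRNN at chr1:152414264-152414513 and SPRR3 at chr1:153001499-153001748. KRT13 was not in the table. Capitals mark the motif matches.
KRT4: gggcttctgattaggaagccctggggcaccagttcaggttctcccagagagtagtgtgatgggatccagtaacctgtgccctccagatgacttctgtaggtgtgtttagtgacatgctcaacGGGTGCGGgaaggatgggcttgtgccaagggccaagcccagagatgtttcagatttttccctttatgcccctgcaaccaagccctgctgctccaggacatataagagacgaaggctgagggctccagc
CRNN: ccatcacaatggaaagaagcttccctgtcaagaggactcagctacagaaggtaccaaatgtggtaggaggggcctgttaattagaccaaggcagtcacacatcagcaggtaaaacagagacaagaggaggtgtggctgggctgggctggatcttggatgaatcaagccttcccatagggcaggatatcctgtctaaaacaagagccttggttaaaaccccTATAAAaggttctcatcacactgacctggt
SPRR3: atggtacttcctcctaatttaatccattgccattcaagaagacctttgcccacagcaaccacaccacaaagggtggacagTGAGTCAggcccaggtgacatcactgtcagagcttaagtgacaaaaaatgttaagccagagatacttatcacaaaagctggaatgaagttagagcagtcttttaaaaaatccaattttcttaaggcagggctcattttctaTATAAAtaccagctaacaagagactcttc
In all, 5 motifs were searched on both strands, in windows that also held the first 50 transcribed bases. TATAAA, the TATA box, began 30 bases before the start site in CRNN and 29 bases before it in SPRR3, and 11.5% of the 35116 promoters in the table held it. TGAGTCA, the AP-1 site, began 170 bases before the start in SPRR3 alone of the 3, against 4.95% of all promoters. CCNCNCCC, a KLF site that 56.2% of all promoters held, had its match in KRT4, on the opposite strand and 128 bases before the start. The p53-family half-site and the grainyhead site AACCNGTT, held by 6.63% and 1.73% of all promoters, had no match in these 3 windows.

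The libraries held between 1530847 and 22019974 counts, with a median of 14192586. The lowest total, against a second lowest of 6375963, belonged to replicate 3 of ΔNp63 day 1, which stands apart in its TP63 level as well. TP63 averaged 926 CPM at day 6 and 4.35 CPM at day 0 in the ΔNp63 line, and 655 and 2.93 CPM in the TAp63 line. CPM is the count per 1000000 of the TMM-adjusted library size. At ΔNp63 day 1 TP63 stood at 721, 576 and 69.2 CPM in replicates 1, 2 and 3. In replicate 3 a count of 3 equals 2.0 CPM, and KRT4 and CRNN had 0 counts there, KRT13 had 4 and SPRR3 had 8. HBG2, a fetal globin gene with a near-identical copy, had 30.1, 3.85 and 1727 CPM in replicates 1, 2 and 3 of that group, and VIM, encoding the mesenchymal filament protein vimentin, had 17.2, 3.90 and 835 CPM. Their part in the members' values was not tested. Values for the group are therefore also given without replicate 3. Of 10 neuroendocrine markers, CHGA, INSM1 and SCG2 stayed under 1 CPM in every group mean, while CHGB reached 28.2 CPM. The tuft cell factor POU2F3 reached 218 CPM.

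KRT13 was the most abundant member per kb of span in the ΔNp63 line at days 3 and 6, and in the TAp63 line at day 3. It had most of its day 6 difference from day 0 by day 3. In the ΔNp63 line it stood at 10.9, 6.93 and 7.48 CPM at day 0, at 13.5, 16.4 and 2.66 CPM at day 1, at 80.9, 55.3 and 54.8 CPM at day 3, and at 110, 72.9 and 65.4 CPM at day 6. In this line every day 3 and day 6 library lay above every day 0 library, and day 1 overlapped day 0. The mean at day 6 was 82.7 ± 23.8 CPM, against 8.43 ± 2.13 CPM at day 0 (SD, n = 3 each), a ratio of 9.82. The fitted log2 change over day 0 was 0.61 ± 0.336 at day 1, 2.93 ± 0.334 at day 3 and 3.31 ± 0.339 at day 6 (± SE, edgeR). Day 1 averaged 15 ± 2.03 CPM without replicate 3 (SD, n = 2), against 10.9 ± 7.25 CPM with it.

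In the TAp63 line KRT13 stood at 12.8, 8.03 and 9.29 CPM at day 0, at 11.1, 8.98 and 7.74 CPM at day 1, at 36.7, 22.1 and 22.6 CPM at day 3, and at 29.6, 21.1 and 19 CPM at day 6. Here too all day 3 and day 6 libraries lay above day 0, at a smaller distance than in the ΔNp63 line. The log2 change was -0.07 ± 0.334 at day 1, 1.46 ± 0.328 at day 3 and 1.24 ± 0.326 at day 6. Its day 6 change was larger in the ΔNp63 line by 2.06 ± 0.457 on the log2 scale, and no library of the lines overlapped at that day.

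KRT4, the partner keratin, was far scarcer, and its means at days 3 and 6 were above day 0 in the ΔNp63 line alone. In the ΔNp63 line KRT4 stood at 0.741, 0.852 and 0.591 CPM at day 0, at 0.434, 1.63 and 0 CPM at day 1, at 1.47, 1.78 and 1.76 CPM at day 3, and at 6.94, 6.76 and 3.95 CPM at day 6. All day 3 and day 6 libraries lay above day 0, whereas day 1 straddled it. The counts behind the day 6 values were 89, 94 and 25, against 9, 15 and 9 at day 0. Its log2 change over day 0 was 0.37 ± 0.553 at day 1, 1.18 ± 0.516 at day 3 and 3.01 ± 0.520 at day 6. Its day 1 value was -0.96 without replicate 2 of that group and 0.80 without replicate 1, so its sign rests on single libraries.

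KRT4 in the TAp63 line stood at 0.770, 0.677 and 0.743 CPM at day 0, at 0.545, 0.514 and 0.262 CPM at day 1, at 1.24, 0.635 and 0.257 CPM at day 3, and at 0.785, 0.938 and 0.185 CPM at day 6. Days 3 and 6 overlapped day 0, and the day 1 libraries lay below it on counts of 7, 11 and 2. The share of all tested genes that lay below day 0 in this way was not counted. The log2 change was -0.64 ± 0.585 at day 1, -0.01 ± 0.570 at day 3 and -0.14 ± 0.562 at day 6. Both lie within 1 SE of 0, and a change smaller than these errors was not detectable at this depth. The day 6 response was larger in the ΔNp63 line by 3.14 ± 0.761, and the ΔNp63 libraries all lay above the TAp63 libraries.

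CRNN in the ΔNp63 line had a lower mean at day 1 than at day 0, and higher means at days 3 and 6. It stood at 3.29, 3.46 and 2.69 CPM at day 0, at 2.24, 1.63 and 0 CPM at day 1, at 4.22, 3.96 and 4.45 CPM at day 3, and at 12.9, 10.1 and 9.95 CPM at day 6. Every day 1 library lay below day 0, replicate 3 with its 0 counts included, and every day 3 and day 6 library lay above it. The share of all tested genes with every day 1 library below day 0 was not counted, so nothing is read from that. Its log2 change over day 0 was -0.90 ± 0.439 at day 1, 0.42 ± 0.396 at day 3 and 1.80 ± 0.400 at day 6. Day 1 was at -0.72 without replicate 3.

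CRNN in the TAp63 line stood at 4.47, 1.45 and 1.80 CPM at day 0, at 2.73, 1.31 and 1.18 CPM at day 1, at 1.76, 1.81 and 3.08 CPM at day 3, and at 3.57, 4.25 and 5.93 CPM at day 6. Replicate 1 of day 0 lay above 2 of the 3 day 6 libraries, so the groups overlapped. The log2 change was -0.45 ± 0.434 at day 1, and 0.11 without that replicate. At day 6 it was 0.93 ± 0.414, and 1.48 without that replicate. The ΔNp63 response exceeded the TAp63 response by 0.87 ± 0.571 at day 6, but by 0.32 without TAp63 day 0 replicate 1. At day 3 the same difference was 0.56 ± 0.586 and was 0.001 without it. How much more CRNN responded in the ΔNp63 line therefore rests on 1 library. With each library left out in turn, the difference ran from 0.32 to 1.18 at day 6 and from 0.001 to 0.89 at day 3. Its sign held, but the low ends lie within 1 SE of 0. The day 6 level of CRNN itself was higher in all ΔNp63 libraries than in any TAp63 library.

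SPRR3 showed the opposite preference, with its larger response in the TAp63 line. In the ΔNp63 line it stood at 5.35, 8.01 and 6.04 CPM at day 0, at 3.11, 7.75 and 5.32 CPM at day 1, at 3.67, 6.36 and 6.77 CPM at day 3, and at 4.75, 10.4 and 9.01 CPM at day 6. All induced groups overlapped day 0 in this line. Its log2 change over day 0 was -0.24 ± 0.371 at day 1, -0.21 ± 0.350 at day 3 and 0.31 ± 0.353 at day 6, each within 1 SE of 0. Day 1 moved to -0.85 without replicate 2 of that group.

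SPRR3 in the TAp63 line stood at 4.62, 7.74 and 7.22 CPM at day 0, at 3.89, 5.24 and 5.77 CPM at day 1, at 7.66, 15.2 and 13.4 CPM at day 3, and at 16.7, 29.4 and 26.8 CPM at day 6. All day 6 libraries lay above every day 0 library, and at day 3 replicates 2 and 3 did. Compared by replicate number, each day 3 library lay above its day 0 library, replicate 1 at 7.66 against 4.62 CPM. The mean at day 6 was 24.3 ± 6.69 CPM, against 6.53 ± 1.67 CPM at day 0 (SD, n = 3 each), a ratio of 3.72. The log2 change was -0.43 ± 0.359 at day 1, 0.87 ± 0.349 at day 3 and 1.87 ± 0.350 at day 6. For SPRR3 the ΔNp63 response minus the TAp63 response was -1.56 ± 0.493 at day 6, and every ΔNp63 library lay below every TAp63 library.

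**Figure D1:**
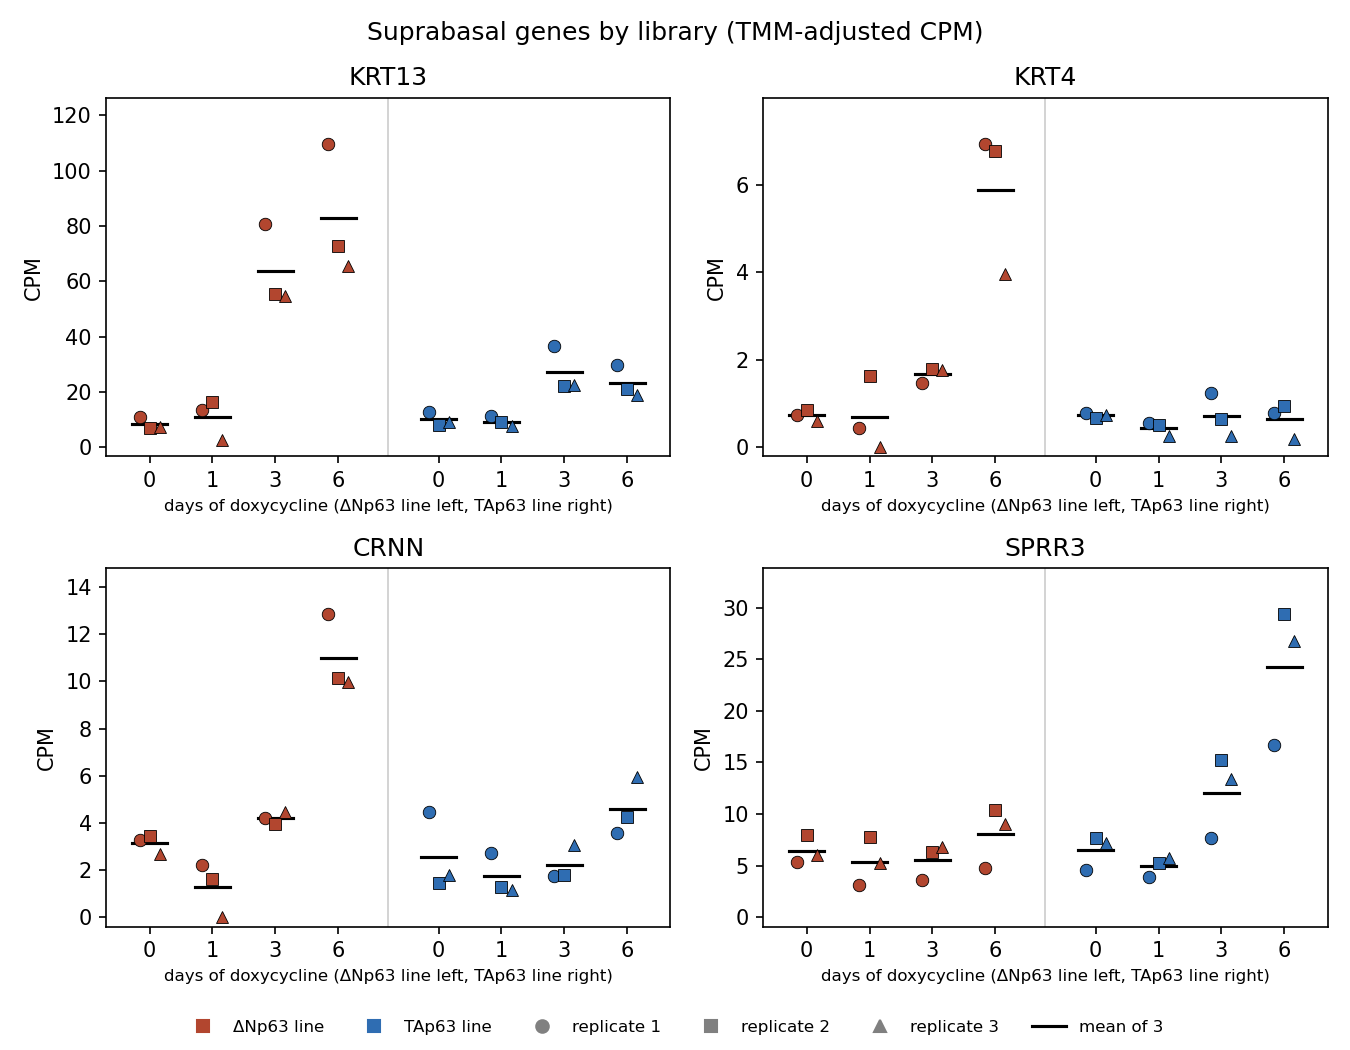
CPM of KRT13, KRT4, CRNN and SPRR3 in each of the 24 libraries (y axis, linear, its own range for each gene) by days of doxycycline (x axis), with the ΔNp63 line left and the TAp63 line right. Marker shapes give the replicate number and bars the mean of 3 libraries: the highest KRT13, KRT4 and CRNN values stand at ΔNp63 day 6, and the highest SPRR3 values at TAp63 day 6.

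Over both lines, the libraries of KRT13, KRT4 and CRNN lay above day 0 without overlap at ΔNp63 day 3 and at ΔNp63 day 6, which is 3 of 4 members each time, against 13.1% and 10.0% of all tested genes. In the TAp63 line this held for KRT13 at day 3, against 7.10% of all tested genes, and for KRT13 and SPRR3 at day 6, against 6.85%. At day 6 the ΔNp63 libraries lay above all TAp63 libraries for KRT13, KRT4 and CRNN, against 7.33% of tested genes, and below them for SPRR3, against 7.23%. The members were chosen on these same contrasts, so nothing is read from their counts.

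The order in which the genes moved away from day 0 differed as well. At day 3, KRT13 in the ΔNp63 line had 74.4% of its day 6 difference in CPM from day 0, with 70.8%, 73.4% and 81.7% in replicates 1, 2 and 3. KRT4 in that line had 18.3% by then, with 11.7%, 15.8% and 34.7% by replicate. CRNN had 13.5%, with 9.68%, 7.44% and 24.3% by replicate. KRT13 was thus ahead of KRT4 and CRNN in every replicate. KRT4 was ahead of CRNN in each replicate as well, by less than the range between replicates. In the TAp63 line KRT13 had 130% of its day 6 difference at day 3, with 108% to 143% by replicate, so its level at day 6 was no higher than at day 3. SPRR3 had 31.2% at day 3 in the TAp63 line, with 25.1% to 34.4% by replicate. CRNN gave no such share in the TAp63 line, since replicate 1 differed from day 0 by -0.898 CPM while replicates 2 and 3 lay above it.

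**Figure D2:**
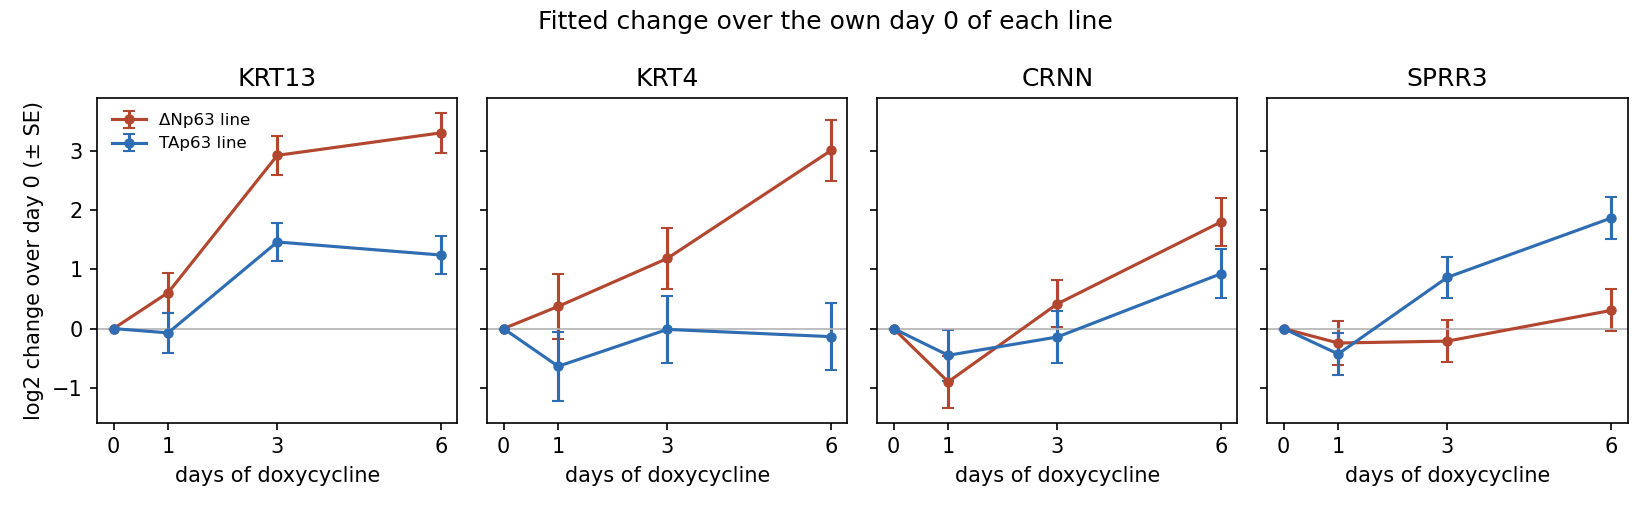
Fitted log2 change over day 0 of the same line (y axis, ± SE from edgeR) by days of doxycycline (x axis) for each gene, ΔNp63 line in red and TAp63 line in blue. KRT13 reaches 2.93 by day 3 in the ΔNp63 line, KRT4 and CRNN reach 3.01 and 1.80 at day 6, and SPRR3 reaches 1.87 at day 6 in the TAp63 line.

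At day 0 SPRR3 came first per kb of span in both lines, at 3.06 CPM in the ΔNp63 line and 3.09 CPM in the TAp63 line. KRT13 then stood at 1.82 and 2.17 CPM per kb. At day 3 KRT13 came first in both lines, in the TAp63 line narrowly, at 5.86 CPM per kb against 5.72 for SPRR3. The order differed between the lines at day 6. At day 6, per kb of span, the ΔNp63 line had KRT13 first at 17.9 CPM, then SPRR3 at 3.82, CRNN at 2.19 and KRT4 at 0.777 CPM. In the TAp63 line SPRR3 came first at 11.5 CPM per kb, then KRT13 at 5.01, CRNN at 0.913 and KRT4 at 0.0841 CPM per kb. The keratin partners were far from equal: the ratio of KRT13 to KRT4 per length was 18.9, 25.8, 62.3 and 23 at days 0, 1, 3 and 6 in the ΔNp63 line. In the TAp63 line the ratio was 22.5, 34.4, 62.4 and 59.6. KRT13 was ahead of KRT4 at day 3 in both lines by this ratio, and by less at day 6 in the ΔNp63 line.

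Replicate numbers ran through the levels of KRT13, KRT4 and SPRR3. For CRNN no replicate led throughout: replicates 1, 2 and 3 were highest in 4, 1 and 3 of the 8 groups, and lowest in 2, 2 and 4. KRT13 was highest in replicate 1 in 7 of 8 groups, SPRR3 was lowest in replicate 1 in 8 of 8, and KRT4 was lowest in replicate 3 in 6 of 8. HBG2 and VIM were highest in replicate 1 in 7 of 8 groups too, and in replicate 3 at ΔNp63 day 1; their part in this order was not tested. Across the 8 group means the log2 levels of KRT13 and KRT4 correlated at r = 0.82, those of KRT4 and CRNN at r = 0.84 and those of KRT13 and CRNN at r = 0.77. SPRR3 gave r of 0.25 with KRT13, -0.06 with KRT4 and 0.36 with CRNN. These correlations describe 8 points that share libraries, depth and 2 lines.

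By the same measure, over 3189 tested genes that varied by at least 1 on the log2 scale, the pattern most like KRT13 was that of CYMP (r = 0.99), SDC1, encoding the epithelial proteoglycan syndecan-1 (0.99), and A4GALT, a glycolipid galactosyltransferase (0.99). A4GALT averaged 41.4 CPM at day 6 and 11.5 CPM at day 0 in the ΔNp63 line, and 21.2 and 10.2 CPM in the TAp63 line. KRT4 was most like LOX, encoding the matrix cross-linking enzyme lysyl oxidase (0.98), MCC (0.97) and CST2, a cystatin (0.97). LOX averaged 9.45 CPM at day 6 and 3.53 CPM at day 0 in the ΔNp63 line, against 2.57 and 2.88 CPM in the TAp63 line. CRNN was most like CA4, a carbonic anhydrase (0.99), SLC24A4, an ion exchanger (0.98), and GJD2, a gap junction connexin (0.98). SPRR3 was most like LRRC3 (0.94), ANO2 (0.94) and CSGALNACT1 (0.91), all of them under 1.5 CPM in every group mean. Over the 24 single libraries CYMP stayed first for KRT13 and SLC24A4 was first for CRNN, while SDC1 ranked 36 for KRT13, MCC 94 and CST2 18 for KRT4, CA4 132 and GJD2 79 for CRNN, and LRRC3, ANO2 and CSGALNACT1 ranked 15, 227 and 397 for SPRR3. CYMP, MCC and CA4 overlap other genes, so their counts are uncertain.

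The gene lists used from here on were chosen with earlier results of these data known, so their calls are given as descriptions. Other genes of the same layers were taken from a list of 40 mucosal suprabasal genes without the 4 members, of which 18 were tested. At ΔNp63 day 3, 5 rose and 0 fell (edgeR quasi-likelihood test, adjusted p under 0.05), against 1.66% and 0.537% of all tested genes. At ΔNp63 day 6, 3 rose and 0 fell, against 1.62% and 0.416%. EMP1 at TAp63 day 3 and S100A14 at TAp63 day 6 were the 1 gene that rose, and 0 fell, against 0.428% higher at each day, 0.00639% lower at day 3 and 0.0128% lower at day 6. With a replicate block, and leaving out replicate 3 of ΔNp63 day 1, 11 of 18 rose at ΔNp63 day 3 and at ΔNp63 day 6, 7 at TAp63 day 3 and 6 at TAp63 day 6. That fit called 12.2%, 8.14%, 3.20% and 2.95% of all tested genes as higher in these comparisons. Leaving out that library alone, 6, 8, 3 and 4 of the list rose, against 4.35%, 3.52%, 0.824% and 0.893% of all tested genes. The list's median log2 change was 0.49 at ΔNp63 day 6 and 0.34 at TAp63 day 6, while the median over all tested genes lay between -0.0154 and 0.00985 over the comparisons. No gene of the list differed in its response between the lines at day 6, against 0.0831% of all tested genes, and 3 reached an unadjusted p under 0.05 and 0 with DESeq2. None differed at day 3 in the main fit either. In the blocked fit without that library, SCEL and S100A8 did at day 3 (edgeR adjusted p = 0.0236 and 0.0266), where 149 of 15783 tested genes were called. Their main-fit differences, ΔNp63 minus TAp63, were 3.44 ± 0.753 and 3.42 ± 0.725.

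S100A8, an inflammatory S100 protein of stressed mucosa, averaged 1.32 ± 0.339 CPM at ΔNp63 day 6 and 0.128 ± 0.0441 CPM at day 0, a log2 change of 3.26 ± 0.482 (edgeR adjusted p = 0.000317). At TAp63 day 6 its change was 1.01 ± 0.475, not past the threshold. Low at day 0 in both lines, S100A8 passed the filter on low counts only through induced groups. Its place among the genes that rose could therefore not have been a fall. S100A9, also on the list and more abundant, averaged 3.24 CPM at ΔNp63 day 6 and 5.57 CPM at day 0. Its change was -0.78 ± 0.456 there (edgeR adjusted p = 0.717) and 0.33 ± 0.444 at TAp63 day 6. S100A14 rose in both lines at day 6, by 1.54 ± 0.284 in the ΔNp63 line and by 1.41 ± 0.286 in the TAp63 line (edgeR adjusted p = 0.00333 and 0.0233). EMP1, an epithelial membrane protein, rose by 1.12 ± 0.265 at ΔNp63 day 6 (edgeR adjusted p = 0.0261), against a change of 1.08 ± 0.265 in the TAp63 line that did not pass (edgeR adjusted p = 0.1) but did in the blocked fit that leaves out replicate 3 of ΔNp63 day 1 (edgeR adjusted p = 2.47e-05). SCEL, encoding the envelope precursor sciellin, and the protease TMPRSS11E rose at ΔNp63 day 3, by 3.32 ± 0.487 and 1.36 ± 0.293 (edgeR adjusted p = 0.000335 and 0.0141). SCEL, low at day 0, also passed the filter on low counts only through induced groups. At TAp63 day 3 the 2 genes stood at -0.12 ± 0.574 and 1.21 ± 0.293 and did not pass. TMPRSS11E did there in the blocked fit without replicate 3 of ΔNp63 day 1 (edgeR adjusted p = 3.73e-09). At ΔNp63 day 6 SCEL and TMPRSS11E stood at 1.93 and 1.06 and did not pass (edgeR adjusted p = 0.0553 and 0.0675), but did in the blocked fit that leaves out replicate 3 of ΔNp63 day 1 (edgeR adjusted p = 0.00471 and 2.09e-08). Of the 22 genes that were not tested, CRCT1, SERPINB3, SERPINB4 and IL36A had 0 counts in all libraries, and MAL and IVL had 6 and 13.

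**Figure D3:**
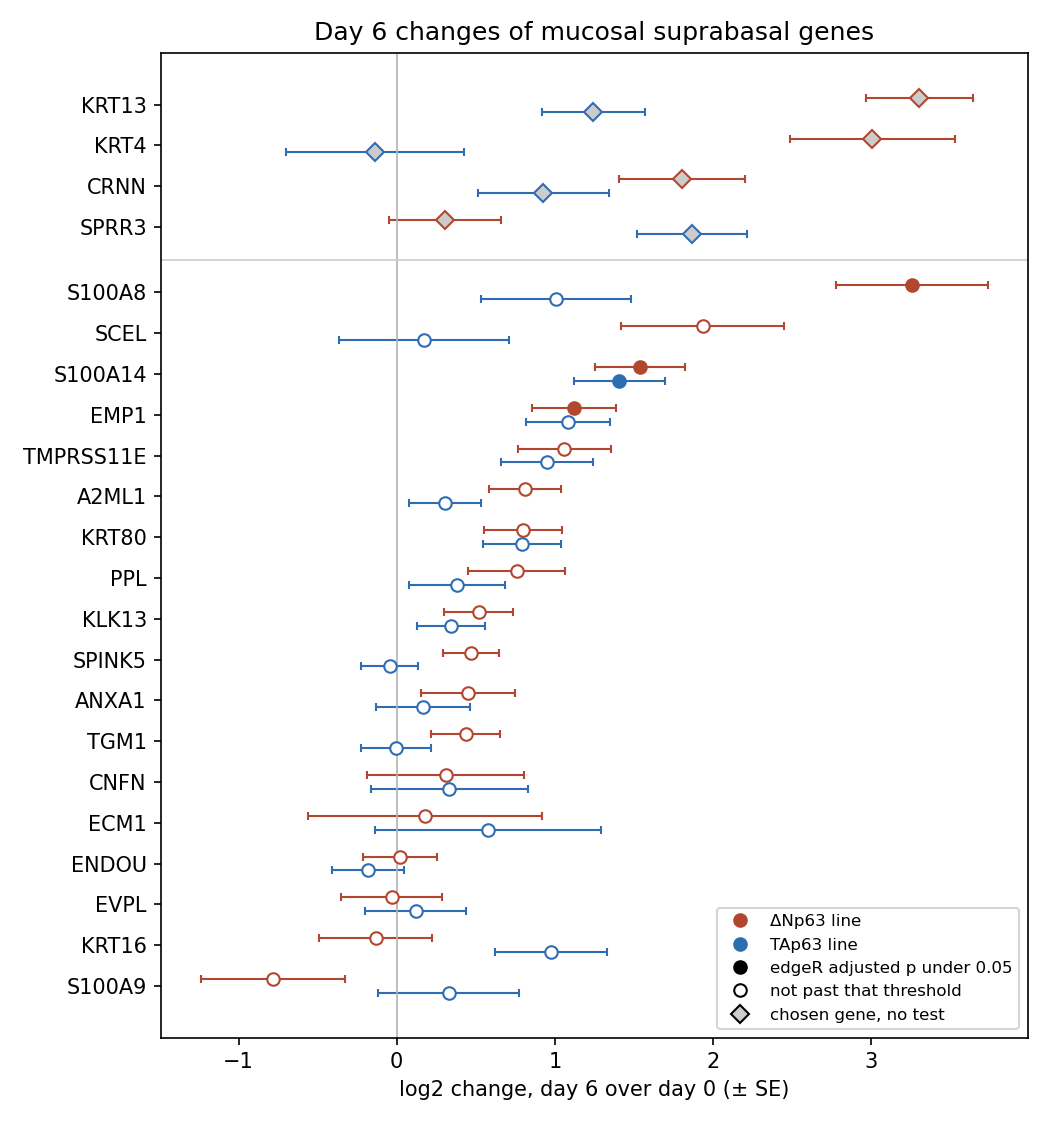
Log2 change at day 6 over day 0 (x axis, ± SE from edgeR) in the ΔNp63 line (red, upper mark) and the TAp63 line (blue, lower mark), for the 4 chosen genes above the line and the 18 tested genes of the mucosal suprabasal list below it. Filled circles passed the threshold: S100A8, S100A14 and EMP1 in the ΔNp63 line and S100A14 in the TAp63 line.

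Of the basal keratins that this pair replaces in normal mucosa, KRT5 rose in the ΔNp63 line, while KRT14 stayed under 0.2 CPM in every group mean and was not tested. KRT5 averaged 22.5 ± 3.46 CPM at ΔNp63 day 6 and 0.641 ± 0.108 CPM at day 0, a log2 change of 5.11 ± 0.390 (edgeR adjusted p = 5.84e-08), and 0.711 ± 0.0597 against 0.495 ± 0.128 CPM in the TAp63 line. With 3 to 13 counts in the day 0 libraries, KRT5 passed the filter on low counts only through induced groups. Of 11 tested basal genes, 6 rose and 1 fell at ΔNp63 day 6, TP63 itself among those that rose, against 1.62% and 0.416% of all tested genes. The basal list too was chosen with earlier results of these data known, so its counts are no independent support. TP63 alone rose at TAp63 day 6, against 0.428% of all tested genes. At ΔNp63 day 6 TRIM29, KRT15, S100A2 and FAT2 rose by 2.18, 2.02, 1.77 and 1.14, and the integrin ITGA6 fell by 0.81. ITGA6 stood at -0.60 ± 0.204 at TAp63 day 6 and did not pass (edgeR adjusted p = 0.573). It did pass as lower there in the blocked fit that leaves out replicate 3 of ΔNp63 day 1 (edgeR adjusted p = 0.000158). Among 16 tested regulators of suprabasal differentiation, those that rose at ΔNp63 day 6 included GRHL1 and HES2, by 0.95 and 1.29, and none passed at TAp63 day 6, where 1 had an unadjusted p under 0.05 and 0 passed with DESeq2. In the same blocked fit GRHL3 rose at TAp63 day 6 (edgeR adjusted p = 0.0179), against 2.95% of all tested genes. Its main-fit changes were 0.91 ± 0.279 there and 1.00 ± 0.279 at ΔNp63 day 6. Of 17 epidermal terminal genes in the table, KRT10 and the desquamation protease KLK7 were tested. KLK7 was called higher in both lines, at 0.382 ± 0.239 CPM at ΔNp63 day 6, where the day 0 libraries had 0 counts. At TAp63 day 6 it had 1.80 ± 0.917 CPM, against 0.0515 ± 0.0531 CPM at day 0. With so few counts at day 0, KLK7 passed the filter on low counts only through induced groups, so a fall could not have been called.

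CRNN and SPRR3 each have a gene family in the same complex. Of 6 fused-type S100 relatives of CRNN, TCHH, encoding trichohyalin, was the 1 tested: it rose by 1.77 ± 0.406 at ΔNp63 day 6 (edgeR adjusted p = 0.0208) and stood at 0.78 ± 0.408 at TAp63 day 6. FLG, HRNR and TCHHL1 had 16 counts each over all libraries, and FLG2 and RPTN had 0. Of 9 SPRR relatives of SPRR3, 5 were tested and 0 passed at ΔNp63 day 6 with edgeR, where 4 had a lower level at an unadjusted p under 0.05 and 1 passed as lower with DESeq2. Their median log2 change was -1.12 at ΔNp63 day 6 and 0.41 at TAp63 day 6. SPRR1A, the most abundant of them, averaged 174 ± 37.7 CPM at ΔNp63 day 6 and 209 ± 66.0 CPM at day 0, and 262 ± 85.6 against 197 ± 23.9 CPM in the TAp63 line. SPRR2F stood at a log2 change of -1.12 ± 0.306 in the ΔNp63 line (edgeR adjusted p = 0.0644) and 0.49 ± 0.291 in the TAp63 line. In that blocked fit, SPRR1B, SPRR2A, SPRR2D and SPRR2F were lower at ΔNp63 day 6 (edgeR adjusted p = 0.0253, 2.38e-07, 0.0190 and 0.000377), against 5.94% of all tested genes. In that fit the responses of SPRR2A, SPRR2D and SPRR2F also differed between the lines (edgeR adjusted p = 0.000358, 0.0121 and 0.000828), against 1.87% of all tested genes in either direction. The SPRR2 genes are near-identical copies, so counts may be split among them. SPRR3 was not lower at ΔNp63 day 6, with its change of 0.31 ± 0.353.

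The neighbours of each gene were counted within 250 kb. KRT13 had 16 neighbours, 7 of them tested, and 2 rose at ΔNp63 day 6: KRT15, a basal type I keratin 12.8 kb away, and KRT19, a simple-epithelial type I keratin 22.6 kb away. In that comparison 1.62% of all tested genes were called higher. KRT15 averaged 32.6 CPM at ΔNp63 day 6 and 8.12 CPM at day 0, and KRT19 457 and 264 CPM (edgeR adjusted p = 0.00357 and 0.0114). KRT4 had 17 neighbours, 7 tested and 0 called in either line, KRT3 and KRT8 among them at log2 changes of 0.11 and 0.49 in the ΔNp63 line. In the blocked fit that leaves out replicate 3 of ΔNp63 day 1, 4 neighbours of KRT13 rose at ΔNp63 day 6 and 2 at TAp63 day 6. Beside KRT4, KRT8 rose and EIF4B fell at ΔNp63 day 6 in it (edgeR adjusted p = 0.000192 and 0.0457). That fit called 8.14% of all tested genes higher and 5.94% lower at ΔNp63 day 6, and 2.95% higher at TAp63 day 6. CRNN had 12 neighbours, none tested, and 8 of them had 0 counts in all libraries. SPRR3 had 23 neighbours, of which the 5 tested in the main fit were the SPRR relatives given above. PRR9, 216 kb from SPRR3, was tested in the blocked fit alone and called at ΔNp63 day 6 (edgeR adjusted p = 0.0392). It averaged 0.762 CPM there, against 0.257 CPM at day 0.

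**Figure D4:**
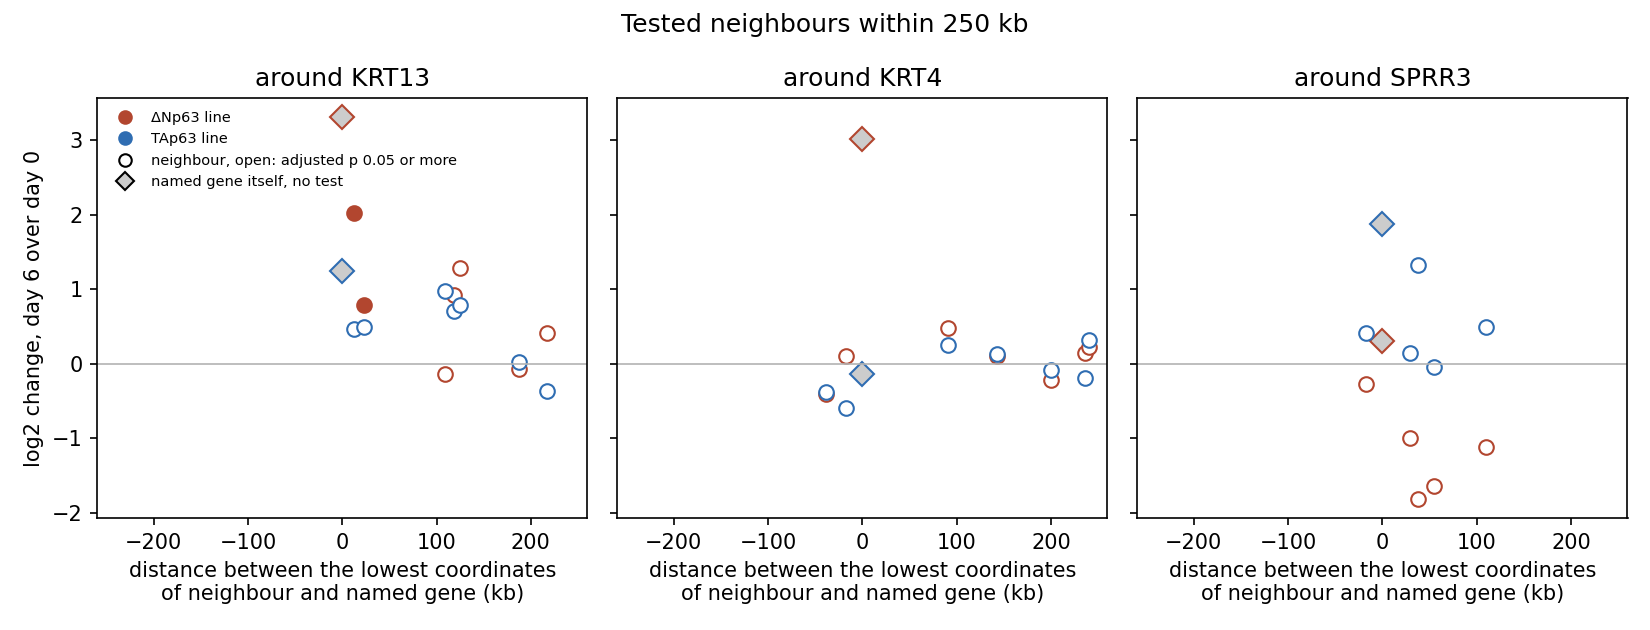
Log2 change at day 6 over day 0 (y axis) of KRT13, KRT4 and SPRR3 and their tested neighbours against the distance between the lowest coordinates of the genes (x axis, kb), ΔNp63 line in red and TAp63 line in blue. KRT15 and KRT19 beside KRT13 are the filled, called neighbours, and the 5 SPRR genes around SPRR3 lie below 0 in the ΔNp63 line.

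Some marker sums of other cells moved with the groups too. At day 6 the tuft sums lay apart from day 0 in both lines, the immune sum in the ΔNp63 line and the columnar sum in the TAp63 line. The other ranges given here overlapped day 0. The summed level of 7 immune markers, carried mostly by LYZ, was 534 to 686 CPM at ΔNp63 day 6 and 949 to 1123 CPM at day 0, and 910 to 1333 against 1123 to 1448 CPM in the TAp63 line. The sum of 10 tuft markers was 607 to 697 CPM at ΔNp63 day 6 and 863 to 918 CPM at day 0, and 763 to 805 against 920 to 989 CPM in the TAp63 line. That of 8 columnar markers was 29.6 to 43.1 CPM at TAp63 day 6 and 15.9 to 23.4 CPM at day 0, and 17.1 to 26.6 against 15.9 to 21.5 CPM in the ΔNp63 line. The 10 neuroendocrine markers summed to 252 to 286 CPM at ΔNp63 day 6 and 231 to 264 CPM at day 0, and to 202 to 237 against 217 to 261 CPM in the TAp63 line. Of 7 fibroblast markers the sum was 18.6 to 29.1 CPM at ΔNp63 day 6 and 14.3 to 20.1 CPM at day 0, and 18.1 to 26.6 against 11.3 to 20.3 CPM in the TAp63 line. COL3A1, a fibrillar collagen gene among them, averaged 0.951 CPM at ΔNp63 day 6 and 0.0464 CPM at day 0 (log2 change 4.18 ± 0.879, edgeR adjusted p = 0.0126), while THY1 had 0 counts. COL3A1 too passed the filter on low counts only through induced groups, so its call could only be a rise. The sum of 4 endothelial markers was 1.01 to 3.00 CPM at ΔNp63 day 6 and 1.76 to 1.90 CPM at day 0, and 1.5 to 2.78 against 1.69 to 2.03 CPM in the TAp63 line. CD3E and CD79A stayed under 0.3 CPM in every group mean and CHAT under 0.05. The part of these in the members' values was not tested. In bulk RNA, more cells with KRT13, KRT4, CRNN or SPRR3 and more RNA per cell cannot be told apart.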

How the data were processed

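RNA sequencing counts of 24 libraries (2 lines by 4 days, 3 replicates each, numbered in the titles) were used. By the submitters' processing notes, the reads went to hg38 with HISAT2 2.1.0 and were counted with featureCounts 1.6.1, and DESeq2 is named. Per the file headers, the deposited table holds raw counts from featureCounts 2.0.0 on refGene transcripts, for paired fragments, introns included and without strand, so TP63 isoforms are summed and antisense reads cannot be told apart. Its 28278 genes include 6005 at 0 in all libraries. Chi-square per degree of freedom between replicates was 5.05 or more, so each library was counted separately.

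The 4 genes, the gene lists and the motifs were chosen with earlier results of these data known. In R 4.3.3, edgeR 4.0.16 (TMM, filterByExpr by group, quasi-likelihood test, 1 mean per group, all 24 libraries, 16 residual degrees of freedom) was fitted to 15642 genes, with Benjamini-Hochberg adjustment over them and calls at 0.05. It was tested on simulated data. SE is the log2 change over the root of F. Likeness is Pearson's r of log2 CPM with a prior count of 2. Named were the members in every library, TP63, list genes called at day 6 or in the day 6 difference (up to 8 a list by size), the 3 genes most like each member, and called neighbours within 250 kb. Other names, such as SCEL, TMPRSS11E, KRT3, KRT8, SPRR relatives and markers were added after their values were seen.

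Same-numbered libraries deviated together in 7 groups (r 0.16 to 0.689 over 63 pairs, against -0.645 to 0.237 over 126 pairs of different number), whereas pairs with ΔNp63 day 1 ran from -0.286 to 0.342. The numbers in the titles therefore pair the samples outside ΔNp63 day 1, and fits with a replicate block were alternatives. The others were RLE scaling, no filter, DESeq2 1.42.0, libraries of the groups compared, no prior count and each library left out. Floors (3 counts per library) cover counting error only. Some genes that the naming rule covers are not reported here. Figures were drawn with matplotlib 3.10.9.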

Additional observations from a re-analysis of the deposited data

Results flagged for a closer look

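The response of KRT5, the basal keratin that the KRT4 and KRT13 pair replaces in normal mucosa, differed between the lines by the test of the difference itself. At day 6 the ΔNp63 response exceeded the TAp63 response by 4.61 ± 0.590 on the log2 scale (SE, edgeR interaction test, adjusted p = 0.00063). At day 3 it exceeded it by 3.52 ± 0.602 (edgeR adjusted p = 0.0239). No response among KRT13, KRT4, CRNN and SPRR3 was tested in this way, since they were chosen on these contrasts. KRT5, low at day 0 in both lines, passed the filter on low counts only through induced groups. Its list was also chosen with earlier results of these data known, so its test is given as a description.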

How the results depend on the processing

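Of 992 values of the members' 32 changes and differences under the alternatives, 987 lay within 1 SD of the replicates, and the 5 that did not stand beside KRT4, CRNN and SPRR3 above, except the KRT4 difference at day 3, which was 1.73 without TAp63 day 3 replicate 1 and 1.20 ± 0.767 with it. Counts of called genes moved far more. For ΔNp63 days 1, 3 and 6, TAp63 days 1, 3 and 6, and the difference at days 6 and 3, edgeR called 15, 344, 318, 19, 68, 69, 13 and 7 genes. With the replicate block these were 29, 1078, 714, 26, 141, 122, 26 and 10, and with the block, leaving out replicate 3 of ΔNp63 day 1, they were 134, 3712, 2221, 140, 722, 568, 295 and 149. The block moved no member's change by over 1 SD. Fitted to the compared groups alone they were 0, 546, 494, 8, 83, 72, 25 and 3, and with DESeq2 497, 597, 503, 30, 121, 103, 35 and 16. RLE scaling and no filter stayed within 1.5 times. Leaving out 1 library gave 3 to 1101, 144 to 1000, 175 to 784, 4 to 27, 32 to 151, 28 to 154, 6 to 44 and 2 to 20. The highest counts came without ΔNp63 day 1 replicate 3, except 1101 without its replicate 2, and the lowest without a day 0 library. The cause was not tested. At ΔNp63 day 1, KRT4 and CRNN had 0 to 36 counts per library.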
